A study of Mus musculus with 22 samples.

Results

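The 77 genes described here encode mitochondrial ribosomal proteins. They are the rows of 3 deposited comparison tables whose symbol begins with Mrpl or Mrps followed by a digit, 77 of the 19781 genes in each embryonic stem cell table and 77 of the 19057 in the induced pluripotent stem cell table. All 77 had an adjusted p-value in each table. The comparisons come from messenger RNA sequencing of mouse lines with the Col2.3GFP reporter, whose green fluorescent protein (GFP) is driven by part of a collagen I promoter that is active in osteoblast-lineage cells. The groups used were GFP-positive cells sorted from osteoblast cultures of embryonic stem cells (ESC-OB GFP+, 3 samples), the unsorted cultures (ESC-OB, 3), the undifferentiated embryonic stem cells (ESC, 3), osteoblast cultures of induced pluripotent stem cells (iPSC-OB, 2) and the undifferentiated iPSC (2). All carry the reporter, and the labels name 1 ESC line and 1 iPSC line, so each comparison describes a single line. For the cultures, LIF, PD0325901 and CHIR99021 were withdrawn, embryoid bodies were kept for 6 days, retinoic acid at 0.1 µM was present between day 3 and day 5, and osteogenic medium followed up to day 35 to 40. Cells labelled ESC and ESC-OB were at passage 20 to 30, those labelled iPSC and iPSC-OB at passage 10 to 20, and the sorted cells carry no passage. Stem cells were kept on mouse embryonic fibroblast feeders or feeder-free, and scarce RNA was sequenced with an ultra-low-input kit. Sample by sample, neither the medium nor the kit is stated. Calvarial osteoblasts (3 samples) and sorted bone cells with high or low GFP (3 each) were not analysed here.

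Mitochondria keep a small genome that codes for core subunits of the respiratory chain and the ATP synthase, and a ribosome of their own, the mitoribosome, translates those messages in the matrix. The mitoribosome has a large and a small subunit. Its RNAs come from the mitochondrial genome, but every one of its proteins is encoded in the nucleus, made in the cytosol and imported. Some of these proteins descend from those of the bacterial ribosome and others joined the mitoribosome later. Of the 77 genes, 30 encode large subunit proteins with a bacterial counterpart and 20 large subunit proteins without one. The small subunit has 16 with a counterpart and 10 without. The last, Mrps36, was named for the ribosome but was later placed in the 2-oxoglutarate dehydrogenase complex.

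The deposited tables hold each gene's base mean (the mean count after division by size factors over all libraries of a fit), log2 fold change, standard error and adjusted p, with no values per sample. A standard error follows each ± sign, and a gene was called changed at an adjusted p under 0.05. The ESC tables share 1 fit of 9 libraries and their ESC samples. The iPSC table comes from a second fit. Its lowest base means point to 5 libraries, 3 of them iPSC, against 2 labelled iPSC samples, and estimated levels in that line use 3. The directions were read from pluripotency genes: in the authors' deposited tables Pou5f1 was at -8.81 in ESC-OB, -9.78 in ESC-OB GFP+ and -7.97 in iPSC-OB, so negative values are taken as lower in the differentiated cells. Of 6 osteoblast markers, 6 rose in ESC-OB GFP+, 5 in ESC-OB and 5 in iPSC-OB. Sp7, a transcription factor that defines the lineage, was the one not called in both unsorted cultures. Markers of other cell types rose too: 9 of 10 cardiac muscle markers rose in ESC-OB GFP+, 10 in ESC-OB and 8 in iPSC-OB, and epithelial markers rose in 5, 4 and 3 and fell in 1, 1 and 2 of 6 cases. Of 8 cell division markers, 8 fell in ESC-OB GFP+, 8 in ESC-OB and 5 in iPSC-OB. Whether these markers or the mixture take part in the changes described next was not tested.

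The comparison of ESC-OB with ESC asks how these genes changed when ESC were taken to osteoblast cultures. Of the 77 genes, 61 fell and none rose in the authors' deposited table, while over all 18208 genes tested 31.0% fell and 38.6% rose. Adjusted among the 10853 genes with a base mean of at least 100, which include the 77, 39.8% fell and 42.0% rose. The median log2 change was -1.10 for the 77 genes, with quartiles at -1.46 and -0.58, against 0.26 for all genes tested and 0.04 for those with a base mean of at least 100. A log2 change of -1 or lower was listed for 42 of the 77, or 54.5%, against 25.2% of all genes tested. In bulk RNA, fewer cells of a type that expresses a gene and less of its RNA per cell cannot be told apart.

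Mrps5, which encodes the counterpart of bacterial S5 in the small subunit, fell furthest. Its level, estimated from the deposited base mean and fold changes, was 295 normalised counts in ESC-OB and 1775 in ESC. The authors' deposited table gives it -2.59 ± 0.13 (adjusted p = 7.43e-84), which leaves 16.6% of the ESC level. Mrps2, the counterpart of bacterial S2, had an estimated 333 normalised counts in ESC-OB and 1749 in ESC, and -2.39 ± 0.18 in the authors' deposited table (adjusted p = 6.91e-41). Both belong to the small subunit and stood apart from the other members. Mrpl15, a large subunit protein with a bacterial counterpart, fell by 2.05 ± 0.19 on the log2 scale (authors' deposited table, adjusted p = 2.37e-25). Mrpl45, which lies near the exit of the peptide tunnel where the mitoribosome meets the inner membrane, had an estimated 321 normalised counts in ESC-OB and 1282 in ESC (deposited adjusted p = 1.36e-44). Mrps18b, a small subunit protein without a bacterial counterpart, completed the 5 largest falls at -1.93 ± 0.18 (authors' deposited table, adjusted p = 5.68e-27). These 3 genes were left at 24.1% to 26.3% of their ESC level. The smallest called falls, again from the authors' deposited table, belonged to Mrps36 (-0.48 ± 0.20, adjusted p = 0.0248), Mrpl10 (-0.53 ± 0.15), Mrpl43 (-0.56 ± 0.15), Mrps33 (-0.58 ± 0.17) and Mrps17 (-0.59 ± 0.19). Mrps36, the gene of the other complex, thus had the smallest of all 61. Its fall was not called at an adjusted p of 0.01, by length (-0.23, adjusted p = 0.271) or by G and C content (-0.38, adjusted p = 0.0724), where a gene is set against the median of all genes of its decile. By length, Mrps33 (-0.34) and Mrps17 (-0.35) also lost their calls. By G and C content 4 falls were gained: Mrpl14 (-0.76), Mrps34 (-0.71), Mrps23 (-0.49) and Mrpl9 (-0.38). Centring on the median of genes whose base mean reached 10 gained 7 falls. They were these 4 genes, Mrpl30 (-0.40), Mrpl33 (-0.41) and Mrpl53 (-0.39).

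The falls were spread over both subunits. Genes of the large subunit with a bacterial counterpart fell in 23 of 30 cases (median -1.28) and those without in 15 of 20 (median -1.03). Small subunit genes fell in 14 of 16 cases with a counterpart (median -1.10) and in 8 of 10 without (median -1.08). The 16 genes not called ran from Mrps23 at -0.39 ± 0.19 to Mrpl23 at 0.34 ± 0.19 in the authors' deposited table. Their transcripts were short, with a median of 693.5 bases against 1219 for those that fell. The plot of log2 changes by subunit shows each gene in the 3 comparisons.

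**Figure D1:**
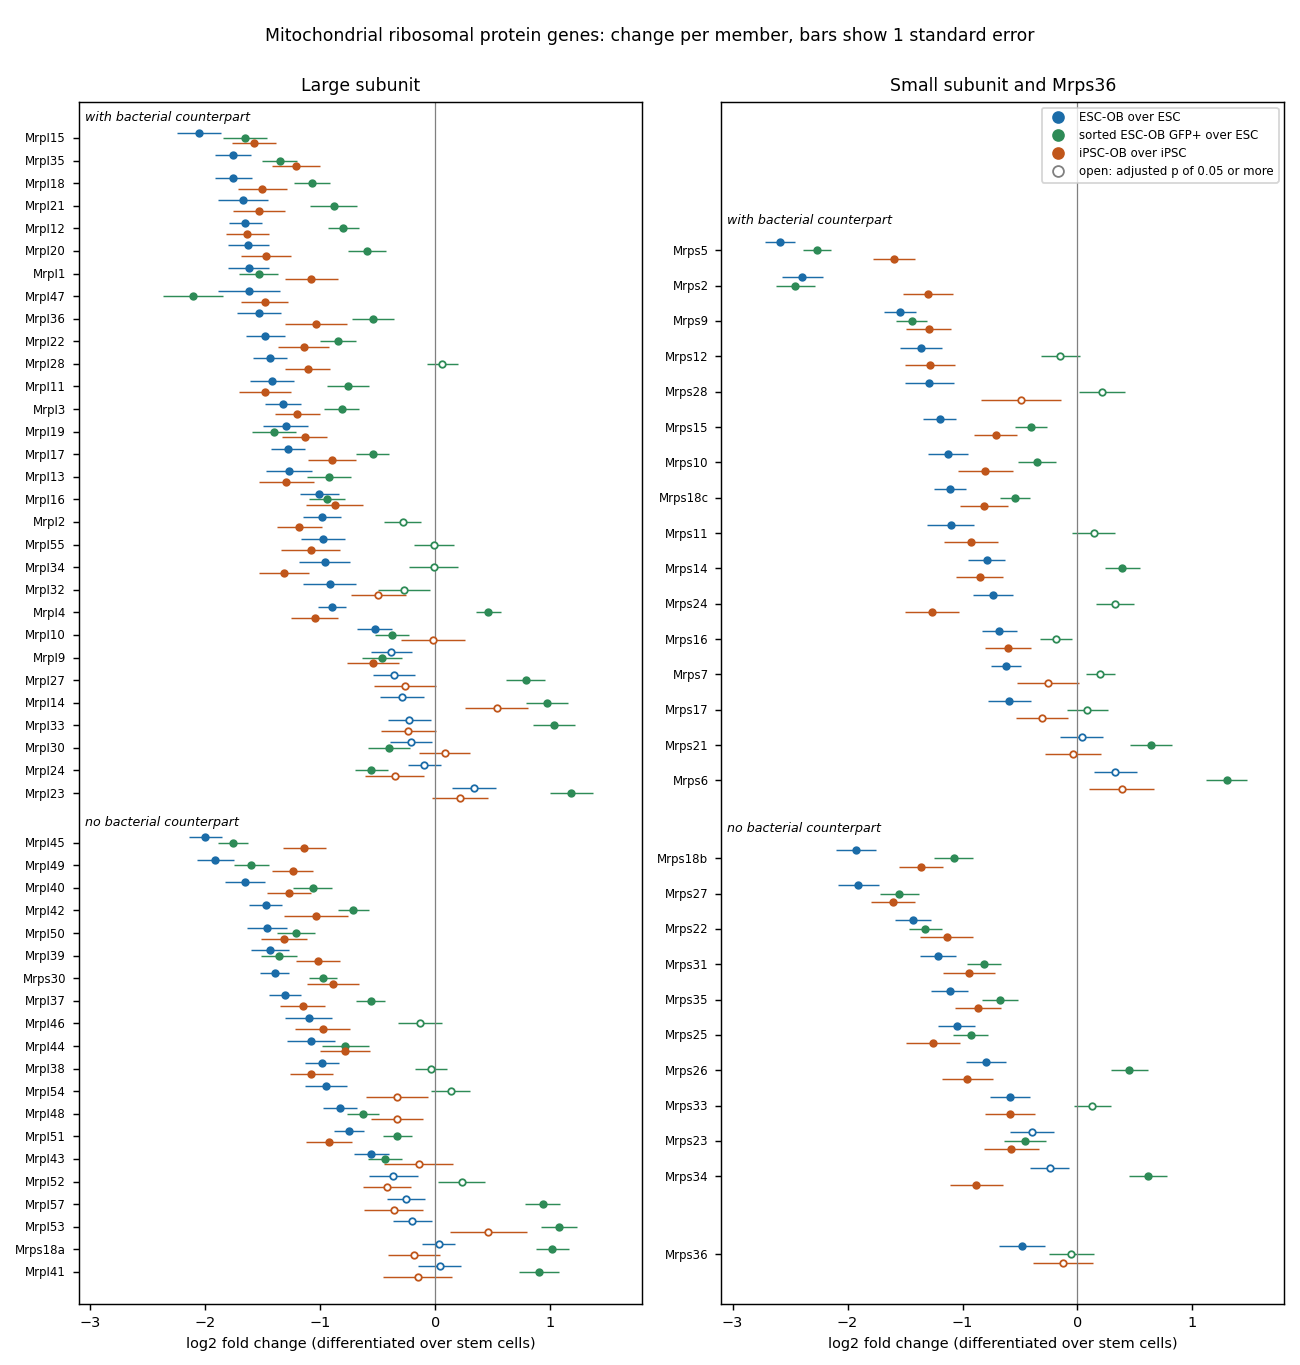
Deposited log2 fold changes (x axis) of each mitochondrial ribosomal protein gene (rows, grouped by subunit and by bacterial counterpart) in ESC-OB against ESC, ESC-OB GFP+ against ESC and iPSC-OB against iPSC. Bars are ±1 standard error and open points are genes not called. In the unsorted cultures every called gene lies left of 0 (61 and 55 genes), while in ESC-OB GFP+ 14 called genes lie right of it and 45 left.

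ESC-OB GFP+ against ESC asks the same for cells with an active collagen reporter, and it uses the same 3 ESC samples. Here 14 of the 77 genes rose, 45 fell and 18 were not called in the authors' deposited table. Of all 18588 genes tested, 39.1% rose and 32.4% fell. Adjusted among the 10853 genes with a base mean of at least 100, 43.7% rose and 41.0% fell. The median was -0.45, with quartiles at -0.93 and 0.13, against 0.28 for all genes tested. The genes at the lower end were largely those named for ESC-OB. Mrps2 was at -2.45 ± 0.17, Mrps5 at -2.27 ± 0.12, Mrpl45 at -1.76 ± 0.13 and Mrpl15 at -1.65 ± 0.19 in the authors' deposited table, with adjusted p-values of 1.53e-45, 3.93e-74, 1.08e-38 and 8.22e-18. Mrpl47, the counterpart of bacterial L29 beside the tunnel exit, joined them at -2.11 ± 0.26 (authors' deposited table, adjusted p = 2.35e-15), at an estimated 111 normalised counts in ESC-OB GFP+ and 478 in ESC. Mrpl47 shares exon sequence with Actl6a on the opposite strand, which fell by 2.61 ± 0.18 in the authors' deposited table, so its value is uncertain. The smallest called falls were those of Mrpl51 (-0.33 ± 0.13), Mrps10 (-0.35 ± 0.16), Mrpl10 (-0.37 ± 0.15), Mrps15 (-0.40 ± 0.14) and Mrpl30 (-0.40 ± 0.18), as listed in the authors' deposited table.

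The 14 genes that rose came from both subunits: 5 of 30 and 4 of 20 in the large, 3 of 16 and 2 of 10 in the small. Mrps6, the counterpart of bacterial S6, rose most, by 1.30 ± 0.18 (authors' deposited table, adjusted p = 1.27e-12), with an estimated 534 normalised counts in ESC-OB GFP+ and 217 in ESC. It shares exon sequence on the same strand with Slc5a3, an inositol transporter gene that rose by 1.82 ± 0.23 there in the authors' deposited table, so this rise is uncertain. Mrpl23, the counterpart of bacterial L23, was at 1.18 ± 0.19 in the authors' deposited table (adjusted p = 7.53e-10). Mrpl53, a large subunit protein without a counterpart, was at 1.08 ± 0.16, Mrpl33, the counterpart of bacterial L33, at 1.03 ± 0.18, and Mrps18a at 1.02 ± 0.14 (authors' deposited table, with adjusted p-values of 2.16e-11, 2.63e-08 and 1.31e-12). Mrpl53 and Mrpl33 also overlap other annotated genes and are uncertain. The 5 smallest rises were those of Mrps14 (0.39 ± 0.15), Mrps26 (0.45 ± 0.16), Mrpl4 (0.46 ± 0.11), Mrps34 (0.61 ± 0.16) and Mrps21 (0.64 ± 0.18) in the authors' deposited table. The remaining 4 were Mrpl27, Mrpl41, Mrpl57 and Mrpl14, at 0.79 to 0.97 in the authors' deposited table. The genes that rose had short transcripts, with a median of 754 bases and 53.9% G and C, against 1316 bases and 49.3% for those that fell. Over all genes this comparison also moved with base composition, from a median of -0.66 in the decile with the least G and C to 0.92 in that with the most. After each gene was set against the median of its decile, 12 of the 77 genes rose, against 42.1% of all genes, and Mrpl4 and Mrps34 turned to -0.46 (called) and -0.31 (not called). Mrpl14 went to 0.05 and lost its call (adjusted p = 0.815). Mrpl51, among the smallest falls, turned to 0.10 (not called), and Mrpl30 lost its call at -0.13 (adjusted p = 0.492). At an adjusted p of 0.01, the falls of Mrpl51, Mrps10, Mrpl10 and Mrpl30 were not called.

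ESC-OB GFP+ and ESC-OB share the ESC samples, so their values are given side by side and the difference between them was tested. Of the 77 genes, 40 had a higher log2 change in ESC-OB GFP+ than in ESC-OB and none a lower one (difference of the deposited changes, Benjamini-Hochberg adjustment over 19781 genes). Over all genes 10.7% were higher and 12.1% lower. Adjusted among the 10856 genes with a base mean of at least 100, which include the 77, 20.8% were higher and 21.2% lower. The median difference was 0.66 for the 77 genes and 0.06 for all genes, and it was positive for 70 of the 77. The summed error counts the shared ESC samples once for each table and is therefore too large. Higher values were called for 16 of 30 and 9 of 20 large subunit genes and for 11 of 16 and 4 of 10 small subunit genes.

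Mrpl28, the counterpart of bacterial L28, was at 0.06 ± 0.13 in ESC-OB GFP+ and at -1.44 ± 0.14 in ESC-OB in the authors' deposited tables. Its difference was 1.50 ± 0.20 (adjusted p = 1.35e-12, 95% interval 1.11 to 1.89). Its estimated level was 746 normalised counts in ESC-OB GFP+, 264 in ESC-OB and 714 in ESC, so the unsorted cultures stood below both others. Centred by G and C content, Mrpl28 was at -0.64 in ESC-OB GFP+, a called fall (adjusted p = 2.33e-06). Mrps28, a small subunit protein, was at 0.22 ± 0.20 in ESC-OB GFP+ and -1.29 ± 0.21 in ESC-OB in the authors' deposited tables, a difference of 1.50 ± 0.29 (adjusted p = 4.24e-06). Mrpl4, the counterpart of bacterial L4, was called in opposite directions, at 0.46 ± 0.11 in ESC-OB GFP+ and -0.90 ± 0.12 in ESC-OB (authors' deposited tables). Its difference of 1.36 ± 0.16 had an adjusted p of 4.52e-15, and its estimated level was 804, 313 and 584 normalised counts in ESC-OB GFP+, ESC-OB and ESC. Mrps14 and Mrps26 were also called in opposite directions, at 0.39 and 0.45 in ESC-OB GFP+ and at -0.79 and -0.80 in ESC-OB in the authors' deposited tables. Both rises lost their call after centring on the median of genes whose base mean reached 10, at 0.18 and 0.24 (adjusted p = 0.268 and 0.170), and that of Mrps14 also by length and at an adjusted p of 0.01. Mrpl53 and Mrpl33 differed by 1.28 ± 0.23 and 1.26 ± 0.26 (adjusted p = 7.18e-07 and 1.9e-05). The smallest differences called were those of Mrps18c (0.56), Mrpl22 (0.63), Mrps17 (0.68), Mrpl18 (0.68) and Mrpl2 (0.70). The pair of genes lowest in ESC-OB had no called difference: Mrps5 differed by 0.32 ± 0.18 (adjusted p = 0.223, 95% interval -0.03 to 0.68) and Mrps2 by -0.06 ± 0.25 (adjusted p = 0.943, interval -0.54 to 0.42). Mrpl47 and Mrpl24 had the lowest differences, -0.49 ± 0.37 and -0.46 ± 0.21, neither called (adjusted p = 0.439 and 0.0925). The transcript of Mrpl24 has 1226 bases, and all genes in its length decile had a median difference of 0.52, well above its own.

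The difference between sorted and unsorted cells moved with transcript length over the whole table. Among 10328 genes with a length and a base mean of at least 100, its median was 0.40 in the decile of the shortest transcripts, 0.52 in the next and -0.97 in the longest. The mitochondrial ribosomal protein genes are short, with a median of 1047 bases (405 to 6073) against 2242 for those genes. Spearman's rho between difference and length was -0.43 across the 77 genes and -0.42 across the 10328, a description over genes that share the same libraries. Set against the median of their own length decile, 20 of the 77 were higher and 1 was lower, against 11.2% and 19.2% of those genes, and the median difference was 0.32. The summed estimated level of the cardiac markers was 5687 normalised counts in ESC-OB GFP+, 28807 in ESC-OB and 335 in ESC, and that of the epithelial markers 47669, 23137 and 6656. The division markers summed to 2945, 4680 and 47700. Nppa, at 6.51, was the lowest cardiac marker in ESC-OB GFP+, and none was at 0. The part of these cell types and of the library kit in the difference was not tested.

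**Figure D2:**
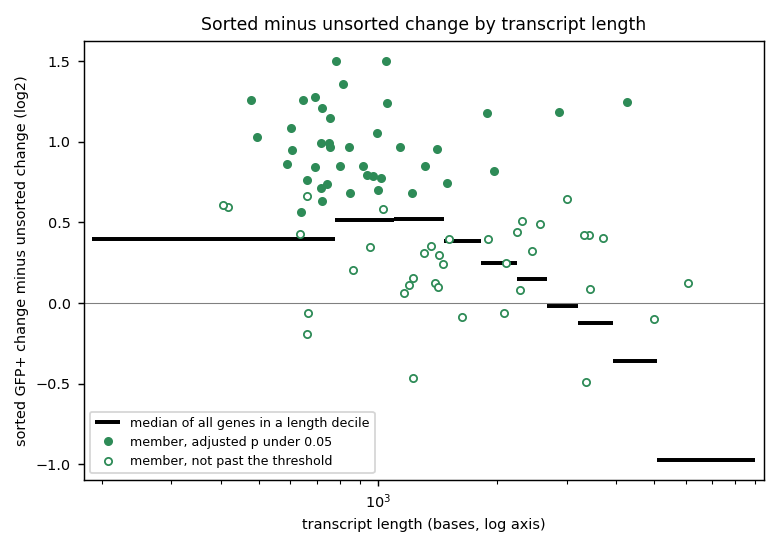
Difference in log2 change between ESC-OB GFP+ and ESC-OB (y axis) against transcript length (x axis, log scale) for the 77 genes, filled where called. Black bars are the medians of all genes in each length decile, from 0.40 in the shortest to -0.97 in the longest, whose bar is shortened. All 40 called genes lie above 0.

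iPSC-OB against iPSC repeats the first comparison in the other line, with 2 labelled samples a group. Of the 77 genes, 55 fell and none rose in the authors' deposited table, against 23.1% that fell and 26.1% that rose of all 17579 genes tested. Adjusted among the 10238 genes with a base mean of at least 100, 32.8% fell and 29.4% rose. The median was -0.94, with quartiles at -1.24 and -0.42, against 0.15 for all genes tested. Mrpl12, the counterpart of bacterial L7/L12, the stalk protein that contacts translation factors, had the largest fall. Its estimated level was 397 normalised counts in iPSC-OB and 1232 in iPSC, with -1.64 ± 0.19 in the authors' deposited table (adjusted p = 5.01e-17). Mrps27, a pentatricopeptide repeat protein of the small subunit, followed at -1.61 ± 0.19, then Mrps5 at -1.59 ± 0.18, Mrpl15 at -1.58 ± 0.19 and Mrpl21 at -1.53 ± 0.23 (authors' deposited table, adjusted p = 6.89e-16, 7.13e-17, 1.78e-15 and 1.3e-10). Mrpl21 overlaps Ighmbp2 on the opposite strand, and Mrpl12 and Mrps27 overlap other annotated genes, so these values are uncertain. All 10 small subunit genes without a bacterial counterpart fell in the authors' deposited table, at -0.58 to -1.61. Of the other groups, 22 of 30 and 12 of 20 large subunit genes and 11 of 16 small subunit genes fell. Mrps36 was at -0.12 ± 0.26 and not called (authors' deposited table, adjusted p = 0.726). The smallest falls called were those of Mrpl9 (-0.54 ± 0.23), Mrps23 (-0.58 ± 0.24), Mrps33 (-0.59 ± 0.22), Mrps16 (-0.60 ± 0.20) and Mrps15 (-0.71 ± 0.19) in the authors' deposited table. Those of Mrpl9, Mrps23 and Mrps33 were not called at an adjusted p of 0.01 or by length. Mrpl9 and Mrps23 also lost their calls after centring on the median of genes whose base mean reached 100 (adjusted p = 0.0711 and 0.0675), and Mrps33 by G and C content (adjusted p = 0.110).

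The falls in the unsorted cultures of both lines were compared gene by gene. Of the 77 genes, 52 fell in both, which is 94.5% of the 55 that fell in iPSC-OB and 85.2% of the 61 that fell in ESC-OB. Over the 17139 genes with an adjusted p in both tables these shares were 81.9% and 59.1%, and no test of the overlap was made. Another 3 fell in iPSC-OB alone, 9 in ESC-OB alone and 13 were called in neither. These comparisons share no library. Across the 77 genes the iPSC-OB and ESC-OB changes had a Spearman rho of 0.85, against 0.69 across all genes, given as a description since the genes share libraries.

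The difference between the lines was called for 5 genes, all with a smaller fall or a higher value in iPSC-OB. Of all 18632 genes, 11.0% were higher and 17.2% lower. Adjusted among the 10856 with a base mean of at least 100, 15.6% were higher and 21.5% lower. The median difference, iPSC-OB minus ESC-OB, was 0.18. Mrps2 was at -1.30 ± 0.22 in iPSC-OB and -2.39 ± 0.18 in ESC-OB in the authors' deposited tables, a difference of 1.09 ± 0.28 (adjusted p = 6.83e-04, 95% interval 0.55 to 1.64). Mrps5 differed by 0.99 ± 0.23 (adjusted p = 1.07e-04, interval 0.55 to 1.44) and Mrpl45 by 0.86 ± 0.23 (adjusted p = 0.00141). Mrpl14, the counterpart of bacterial L14, was at 0.54 ± 0.27 in iPSC-OB and -0.29 ± 0.19 in ESC-OB, neither called in the authors' deposited tables, and its difference of 0.82 ± 0.33 passed narrowly (adjusted p = 0.0492) and did not pass by length (0.77, adjusted p = 0.0566). Mrpl49, a large subunit protein whose exons overlap Syvn1 and which is therefore uncertain, differed by 0.67 ± 0.24 (adjusted p = 0.0199). At the other end, Mrps34 was at -0.88 ± 0.23 in iPSC-OB and -0.24 ± 0.17 in ESC-OB in the authors' deposited tables, a difference of -0.64 ± 0.29 that was not called (adjusted p = 0.0783). Centred by length, the Mrps34 difference was called as lower in iPSC-OB (-0.73, adjusted p = 0.0324). Mrpl12 was not called, at a difference of 0.01 ± 0.24 with an interval of -0.45 to 0.48. Markers of cell types and of division differed between the lines too. Pluripotency markers had a higher log2 change in iPSC-OB for 5 of 6 genes (median difference 3.00) and division markers for 7 of 8 (median 2.32). The division markers summed to an estimated 18657 normalised counts in iPSC-OB and 44294 in iPSC, against 4680 in ESC-OB and 47700 in ESC. Osteoblast markers had a lower log2 change in iPSC-OB for 4 of 6 genes (median difference -4.18). So did epithelial markers for 5 of 6 (median -3.06) and cardiac markers for 5 of 10 (median -2.37), and none was called higher. The osteoblast markers summed to an estimated 32668 normalised counts in iPSC-OB and 8638 in iPSC, against 58512 in ESC-OB and 150 in ESC. The part of all these markers in the 5 differences was not tested.

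**Figure D3:**
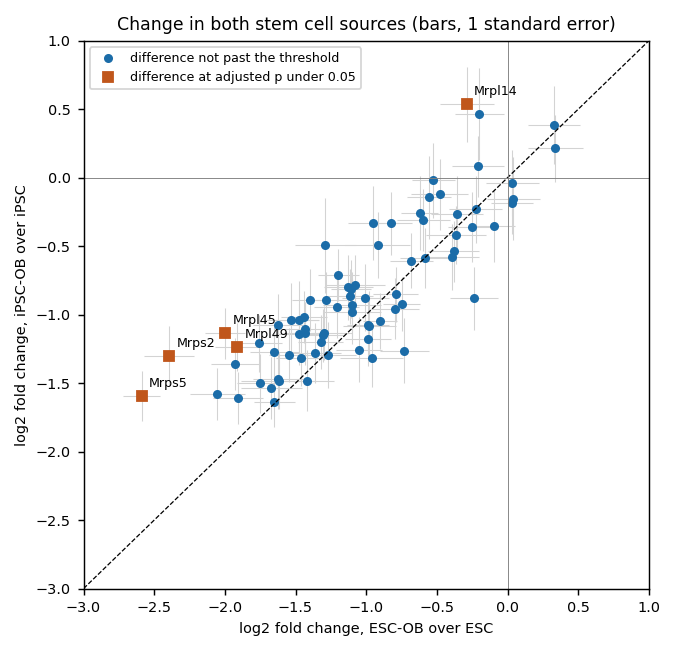
Deposited log2 change in iPSC-OB against iPSC (y axis) and in ESC-OB against ESC (x axis) for the 77 genes, with squares for the 5 genes whose changes differ and a dashed line of equal change. The genes run along the line from near 0 to -1.64 and -2.59, and the squares lie above it.

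Levels set between genes were taken per 1000 bases of transcript, from the estimated normalised counts and the median transcript length of each gene. In ESC-OB GFP+ they ran from 32.9 (Mrpl47) to 1498 (Mrpl33), with a median of 371. In ESC-OB they ran from 32.9 (Mrps25) to 958 (Mrpl30), with a median of 241. In ESC they ran from 68.2 (Mrps25) to 1778 (Mrpl42), a large subunit gene, with a median of 501. In iPSC-OB the median was 241 and the highest 926 (Mrpl30), against 451 and 1524 (Mrpl42) in iPSC. Mrps25 has a transcript of 6073 bases, the longest of the 77. The order at the top thus differed between the cultures and the stem cells, since Mrpl30, the counterpart of bacterial L30, was not called in either unsorted culture (-0.21 ± 0.18 in ESC-OB and 0.08 ± 0.22 in iPSC-OB, authors' deposited tables), while Mrpl42 fell by 1.48 ± 0.14 and 1.04 ± 0.28. Summed over the 77 genes, the estimated level was 70.6% of that in ESC for ESC-OB GFP+ and 45.5% for ESC-OB, and 53.8% of that in iPSC for iPSC-OB. No spread over samples could be given for these levels.

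Genes with more reads in the stem cells tended to fall further. So that no library entered both values, the level was taken from one line and the change from the other. The change still contains the stem cell level of its own line. Where a gene has like levels in both stem cells, a negative rho is thus partly built in. Spearman's rho was -0.62 between the level in iPSC and the change in ESC-OB. It was -0.55 between the level in ESC and the change in iPSC-OB. Both are across 77 genes whose read numbers also reflect transcript length, and the rho over all genes was not calculated. By base mean the deposited tables ranked Mrpl17, Mrps5 and Mrps2 highest in the ESC fit (918.2, 812.9 and 800.3 normalised counts) and Mrpl55, Mrps11 and Mrpl41 lowest (193.7, 203.9 and 220.0). In the deposited iPSC table Mrpl15, Mrpl45 and Mrpl12 were highest (972.8, 941.7 and 897.8) and Mrpl41, Mrpl14 and Mrps6 lowest (151.1, 157.8 and 171.6). The lowest base mean of all was thus 151.1, and the plot of estimated levels shows the whole range.

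**Figure D4:**
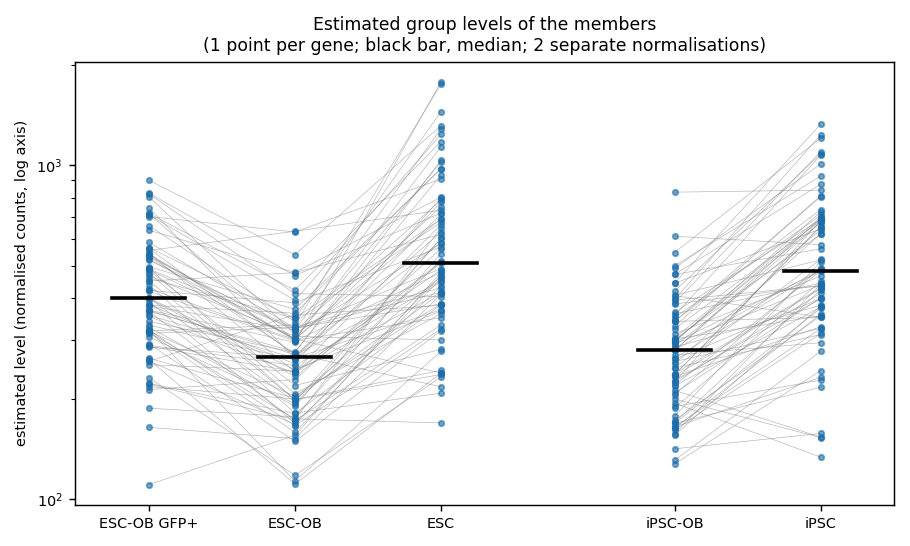
Estimated level in normalised counts (y axis, log scale) of the 77 genes in ESC-OB GFP+, ESC-OB and ESC, and, from a separate normalisation, in iPSC-OB and iPSC. Each point is a gene, thin lines join a gene's levels and black bars are medians. The ESC-OB bar (265.8) lies below those of ESC-OB GFP+ (399.1) and ESC (509.5), and the iPSC-OB bar (279.0) below that of iPSC (482.5).

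Mrps18a, Mrps18b and Mrps18c are paralogs related to bacterial S18 and allow members of 1 family to be set side by side. Mrps18c is the counterpart of S18 in the small subunit, Mrps18b sits elsewhere in the small subunit, and Mrps18a sits in the large subunit in spite of its name. Mrps18a had an estimated 820 normalised counts in ESC-OB GFP+, 413 in ESC-OB and 404 in ESC, and 384 in iPSC-OB and 436 in iPSC. Only the sorted cells stood apart. The authors' deposited tables list it at 1.02 ± 0.14 in ESC-OB GFP+, 0.03 ± 0.15 in ESC-OB (adjusted p = 0.868) and -0.18 ± 0.23 in iPSC-OB (adjusted p = 0.528). Mrps18b had 539 normalised counts in ESC-OB GFP+, 299 in ESC-OB and 1137 in ESC, and 420 in iPSC-OB and 1080 in iPSC, so it was highest in both stem cells. It was at -1.08 ± 0.17 in ESC-OB GFP+, -1.93 ± 0.18 in ESC-OB and -1.36 ± 0.19 in iPSC-OB (authors' deposited tables). Mrps18c fell by 0.54 ± 0.13, 1.11 ± 0.14 and 0.81 ± 0.21 on the log2 scale in the same order (authors' deposited tables), with 353, 239 and 514 normalised counts in ESC-OB GFP+, ESC-OB and ESC and 227 and 399 in iPSC-OB and iPSC. Centred by G and C content, its fall in ESC-OB GFP+ was not called (-0.12, adjusted p = 0.386). The tables hold no test between genes of the family, but the intervals of 2 standard errors of Mrps18a and Mrps18b do not meet in any of the 3 comparisons.

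Their promoters are shown because the 3 paralogs also differ in the short motifs searched, with that of Mrps5, the gene with the largest fall, beside them. The windows run from 250 bases before to 50 after the annotated start (RefSeq, build GRCm38.p6, given 5′ to 3′ on the gene's strand). Capitals mark TGCGCA (the core of the site of NRF1, nuclear respiratory factor 1), CCGGAAG or its complement CTTCCGG (a site of ETS factors such as GABP), and AAGATGG or CCATCTT (a site of YY1). The windows are at chr17:46110754-46111053 on the + strand (Mrps18a), chr17:35916391-35916690 on the - strand (Mrps18b), chr5:100798509-100798808 on the + strand (Mrps18c) and chr2:127587176-127587475 on the + strand (Mrps5).
Mrps18a: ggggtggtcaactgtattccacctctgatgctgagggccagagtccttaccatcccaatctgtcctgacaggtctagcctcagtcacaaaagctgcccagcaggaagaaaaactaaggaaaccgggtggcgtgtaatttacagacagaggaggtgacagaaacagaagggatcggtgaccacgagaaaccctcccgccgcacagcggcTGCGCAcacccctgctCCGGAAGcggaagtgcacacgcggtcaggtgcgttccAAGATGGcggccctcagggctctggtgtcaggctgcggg
Mrps18b: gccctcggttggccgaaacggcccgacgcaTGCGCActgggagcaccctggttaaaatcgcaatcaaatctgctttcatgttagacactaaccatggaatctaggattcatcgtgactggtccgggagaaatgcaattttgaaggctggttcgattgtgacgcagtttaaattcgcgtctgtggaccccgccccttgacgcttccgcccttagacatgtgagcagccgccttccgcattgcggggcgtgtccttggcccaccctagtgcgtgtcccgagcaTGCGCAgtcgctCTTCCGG
Mrps18c: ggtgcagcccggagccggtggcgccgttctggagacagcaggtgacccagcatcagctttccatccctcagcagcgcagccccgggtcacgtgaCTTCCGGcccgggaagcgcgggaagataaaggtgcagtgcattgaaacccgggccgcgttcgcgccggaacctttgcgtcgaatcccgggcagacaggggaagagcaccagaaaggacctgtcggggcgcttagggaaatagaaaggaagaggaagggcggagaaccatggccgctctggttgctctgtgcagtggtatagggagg
Mrps5: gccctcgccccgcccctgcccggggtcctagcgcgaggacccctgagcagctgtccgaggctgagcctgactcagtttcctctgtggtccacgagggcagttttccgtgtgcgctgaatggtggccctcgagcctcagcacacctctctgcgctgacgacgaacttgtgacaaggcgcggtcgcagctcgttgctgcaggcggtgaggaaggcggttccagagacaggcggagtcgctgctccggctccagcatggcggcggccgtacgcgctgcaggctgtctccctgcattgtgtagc
Mrps18a has 1 match of each kind, starting 42 and 26 bases before the start (NRF1 and ETS) and 11 after it (YY1). Mrps18b has 2 NRF1 matches, 220 bases before and 31 after the start, and an ETS match 43 after it. Mrps18c has an ETS match 156 bases before the start and, left in lower case, an E-box (CACGTG) just before it, and Mrps5 has none of the letters searched in this window.

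Promoter windows were available for 68 of the 77 genes (74 windows). NRF1 letters were found on either strand in 28.4% of these windows, against 7.76% of all 32851 promoter windows and 14.0% of the 10614 of genes with a base mean of at least 100. ETS letters were found in 33.8%, against 8.86% and 17.7%, and YY1 letters in 17.6%, against 6.34% and 7.11%. The E-box CACGTG was in 9.46%, against 7.15% and 10.2%. A longer NRF1 form, GCGCATGC, which can overlap the shorter one, was in 10.8%, against 2.71% and 5.44%. In all, 59.5% of the windows of the 77 genes held at least 1 of the 3 main motifs, against 20.4% of all windows. This joint share was not calculated for genes with a base mean of at least 100. In their windows each single motif was more common than in all windows. The 43 genes with a match had median changes of -0.43 in ESC-OB GFP+, -0.92 in ESC-OB and -0.90 in iPSC-OB, and the 25 without a match -0.59, -1.20 and -1.02. A match is a description of the letters and was not tested as a binding site.

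Some of the genes for those factors and for other regulators changed as well. Nrf1 was at -0.98 ± 0.12 in ESC-OB GFP+, -1.52 ± 0.13 in ESC-OB and -1.13 ± 0.20 in iPSC-OB in the authors' deposited tables, and fell in each. Gabpa, the DNA-binding chain of GABP, was at -2.73 ± 0.13, -1.83 ± 0.13 and -1.08 ± 0.20 (authors' deposited tables). Its difference between sorted and unsorted cells was -0.90 ± 0.18 (adjusted p = 1.58e-05), while the difference was positive for 70 of the 77 genes. Over all genes this difference moved with transcript length, and no value centred by length is given here for Gabpa. Whether the Gabpa difference bears on the 77 genes was not tested. Yy1 fell in ESC-OB GFP+ by 2.06 ± 0.16 and was at -0.10 ± 0.16 in ESC-OB and 0.01 ± 0.26 in iPSC-OB (authors' deposited tables, not called). Pprc1, a coactivator of the PGC-1 family that responds to growth signals, was at -1.86 ± 0.20, -1.96 ± 0.20 and -1.42 ± 0.27 and fell in each authors' deposited table. Ppargc1a, the coactivator PGC-1 alpha, rose in each, and its estimated level was 95.5 normalised counts in ESC-OB GFP+, 179 in ESC-OB and 0.486 in ESC, and 61.4 in iPSC-OB and 1.92 in iPSC. Mycn, a growth regulator of stem cells, was at -2.97 ± 0.35, -3.51 ± 0.35 and -2.30 ± 0.31 (authors' deposited tables). Its relative Myc rose by 5.06 ± 0.37 in ESC-OB GFP+ and 3.13 ± 0.37 in ESC-OB and fell by 1.00 ± 0.44 in iPSC-OB (authors' deposited tables, the last at adjusted p = 0.0489). Esrra, a nuclear receptor that works with PGC-1, was at -0.10 ± 0.20, -0.06 ± 0.20 and 0.11 ± 0.26 and not called in any of the authors' deposited tables. Of all 10 regulators listed, 2 rose and 6 fell in ESC-OB GFP+, 2 rose and 6 fell in ESC-OB, and 1 rose and 5 fell in iPSC-OB. The 10 include Gabpb1 and Ppargc1b, whose values are not given here.

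The rest of the mitochondrial translation machinery was described from fixed lists, again by counts and medians. Of 6 mitoribosome proteins with other symbols, 4 fell in ESC-OB GFP+, 5 in ESC-OB and 4 in iPSC-OB, and none rose. Ptcd3, a pentatricopeptide repeat protein of the small subunit, was at -2.03 ± 0.14, -1.98 ± 0.15 and -1.70 ± 0.18 in the authors' deposited tables, close to the lowest of the 77 genes. Dap3, a GTP-binding protein of the small subunit, was at -0.21 ± 0.10, -0.66 ± 0.10 and -0.27 ± 0.26, the last not called in the authors' deposited table. Of 12 translation factors, 7, 8 and 5 fell and none rose (medians -0.62, -0.83 and -0.49). Tufm, the elongation factor that brings tRNA to the mitoribosome, was at -1.47 ± 0.16 in ESC-OB GFP+, -1.45 ± 0.16 in ESC-OB and -1.27 ± 0.20 in iPSC-OB (authors' deposited tables). Tsfm, the factor that recycles it, was at -0.33 ± 0.17 (not called), -1.77 ± 0.19 and -1.47 ± 0.23 in the authors' deposited tables.

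Among 23 genes for assembly of the mitoribosome and modification of its RNA, 12 fell and 2 rose in ESC-OB GFP+, 18 fell and 1 rose in ESC-OB, and 13 fell and 1 rose in iPSC-OB. Tfb1m, the methyltransferase of the small subunit RNA, was at -2.62 ± 0.23, -2.12 ± 0.25 and -1.74 ± 0.27 in the authors' deposited tables, and Noa1, a GTPase of small subunit assembly, at -1.33 ± 0.16, -1.82 ± 0.18 and -1.40 ± 0.25. Mterfd2, which works with the methyltransferase Nsun4 on the large subunit, rose in each, by 0.76 ± 0.17, 1.09 ± 0.18 and 0.83 ± 0.34 (authors' deposited tables). Of 18 genes for mitochondrial aminoacyl-tRNA synthetases and a related amidotransferase subunit, 14, 13 and 11 fell and 3, 1 and 0 rose in the same order. Sars2, the seryl enzyme, was at -1.15 ± 0.21, -2.28 ± 0.23 and -1.83 ± 0.26 in the authors' deposited tables, and Wars2, the tryptophanyl enzyme, at 0.55 ± 0.25, 0.89 ± 0.26 and 0.57 ± 0.31, the last not called.

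Genes that keep and transcribe the mitochondrial genome fell in 10, 11 and 11 of 14 cases, with Polg, the DNA polymerase, rising in ESC-OB GFP+ and iPSC-OB (0.23 ± 0.10 and 0.88 ± 0.17, authors' deposited tables). Tfam, which packages mitochondrial DNA, was at -1.65 ± 0.17, -1.45 ± 0.17 and -1.44 ± 0.17, and Lrpprc, which stabilises mitochondrial messages, at -3.01 ± 0.13 in ESC-OB GFP+ and -2.36 ± 0.13 in ESC-OB in the authors' deposited tables, and it fell in iPSC-OB too. Of 12 genes often used as measures of mitochondrial mass (import, porin, chaperone and citrate synthase genes), 11, 12 and 11 fell and none rose. Transcripts of the mitochondrial genome itself were not analysed here.

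The nuclear genes for respiratory chain and ATP synthase subunits were counted in the same way. Of 81, 27 fell and 25 rose in ESC-OB GFP+, 49 fell and 5 rose in ESC-OB, and 37 fell and 5 rose in iPSC-OB, with medians of -0.07, -0.56 and -0.43. Their difference between sorted and unsorted cells was higher for 27 of 82 genes and lower for 2 (median 0.47), the same sign as for the mitochondrial ribosomal protein genes. Cytosolic ribosomal protein genes had the other sign: 66 of 83 were lower and 2 higher in sorted cells, with a median difference of -1.42. Their median change was -2.14 in ESC-OB GFP+, -0.79 in ESC-OB and -0.45 in iPSC-OB, against -0.45, -1.10 and -0.94 for the mitochondrial ribosomal protein genes. The lists hold unequal numbers of genes and were not tested against each other.

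**Figure D5:**
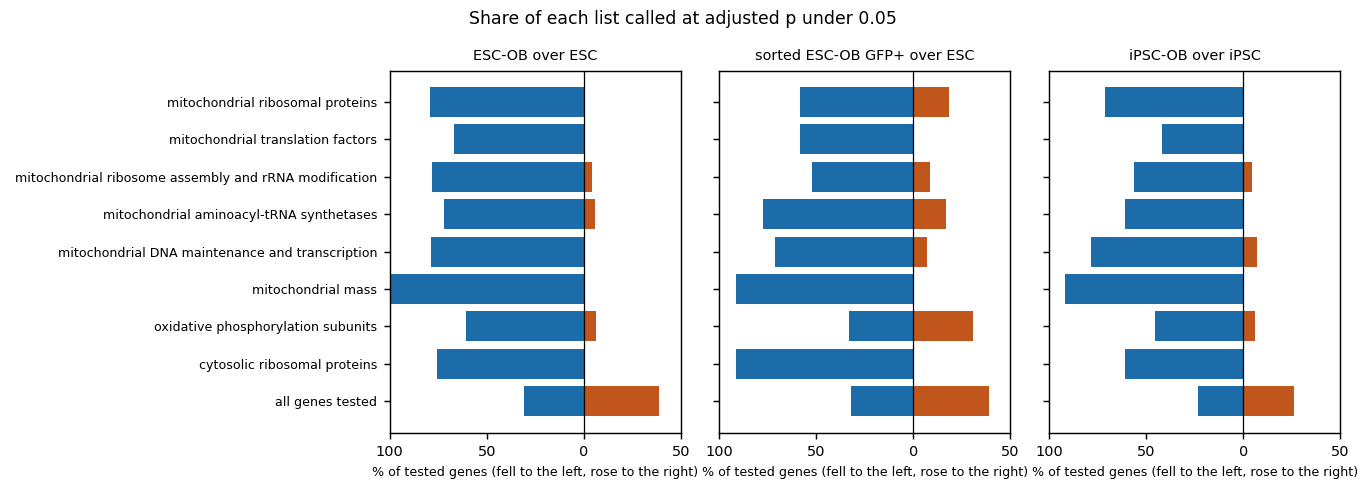
Percentage of genes that fell (left of 0) and rose (right) in each of 8 fixed gene lists and among all genes tested, with a panel for each comparison. Mitochondrial ribosomal protein genes fell in 61 of 77 cases in ESC-OB and 55 in iPSC-OB with none rising, and in ESC-OB GFP+ 14 rose.

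Mrps30, Mrpl44 and the neighbours of the genes complete the account. Mrps30, a large subunit protein in spite of its name, was at -0.97 ± 0.12 in ESC-OB GFP+, -1.40 ± 0.13 in ESC-OB and -0.89 ± 0.23 in iPSC-OB in the authors' deposited tables. Mrpl44, which is related to ribonuclease III, was at -0.78 ± 0.20, -1.08 ± 0.21 and -0.78 ± 0.22 in the authors' deposited tables. Over the 3 comparisons, 38 of the 77 genes fell in all, and 11 fell in both unsorted cultures and were not called in sorted cells. Another 14 rose in sorted cells, 10 of them called in neither unsorted culture. The ESC comparisons share their ESC samples, and the share of all genes with these patterns was not counted. Whether the patterns are particular to the 77 genes therefore cannot be said. Mrpl52 was called in none (0.23 ± 0.21 in ESC-OB GFP+, -0.37 ± 0.21 in ESC-OB and -0.42 ± 0.21 in iPSC-OB, authors' deposited tables), and was named after its values were seen.

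In the annotation, 25 of the 77 genes share exon sequence with another gene, 17 of them with another protein-coding gene and 15 of these on the opposite strand. Whether reads were counted by strand is not given, so these values are uncertain. Besides those marked above, they include Mrpl9, Mrpl10, Mrpl18, Mrpl24, Mrpl27, Mrpl43, Mrpl51, Mrps18b, Mrps18c, Mrps25, Mrps26 and Mrps30. A protein-coding neighbour starts within 1000 bases in the opposite direction for 18 genes, 6 of which also share exon sequence. Of these neighbours, 9 fell and 6 rose in ESC-OB GFP+, 9 fell and 5 rose in ESC-OB, and 7 fell and none rose in iPSC-OB, while 11, 14 and 12 of the 18 ribosomal protein genes fell. Mrps12, the counterpart of bacterial S12, faces Sars2, and both fell in ESC-OB and iPSC-OB. Mrps18b faces Ppp1r10, a protein phosphatase subunit gene, and the pair moved apart in the ESC line: Ppp1r10 rose by 1.13 ± 0.17 in ESC-OB GFP+ and 0.99 ± 0.17 in ESC-OB and fell by 0.80 ± 0.26 in iPSC-OB (authors' deposited tables).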

How the data were processed

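Messenger RNA sequencing was summarised by the authors in 3 comparison tables, which hold 0 columns of values per single sample. Depth per sample, other normalisations and replicate checks could therefore not be used. The submitters' processing notes name DESeq2, R 3.2.2, STAR 2.4.2a and the build mm9, without roles or settings. Per the file headers, the deposited columns are a base mean (a signal, counts over size factors averaged over the libraries of a fit), a log2 fold change and its standard error, a Wald score, and a p-value before and after adjustment. The labels do not say that replicates came from separate cultures, so p-values reflect only the spread among these libraries, which may be technical.

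The calls of the 3 comparisons are the authors' own DESeq2 calls at an adjusted p of 0.05. Each fold change of a gene with few reads was shrunk towards 0 by the authors' fit, as the levelling of the largest standard errors shows. Differences between deposited changes were divided by the root of the summed squared errors, with normal two-sided p-values adjusted by the Benjamini-Hochberg method over all shared genes. The calculation was also run on simulated data. Errors were drawn independently for each table there, so that run could not test the effect of the shared ESC samples. Group levels were worked out from the base means, the fold changes and the number of libraries, which for iPSC were read as 3 from the lowest base means, against 2 labels. Transcript lengths, G and C content and overlaps came from GENCODE M21, and promoters from RefSeq (GRCm38.p6), with genes matched by symbol. No coordinates were converted.

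Genes named with values were the 5 largest and 5 smallest called changes per direction in each comparison and difference, the 3 highest and 3 lowest base means of each fit, genes called in opposite directions, and Mrps18a, Mrps18b, Mrps18c, Mrps30, Mrps36, Mrpl44 and Mrpl12. The genes and lists were chosen with earlier results of these data known. Alternatives covered the threshold, a fold minimum, re-centring, a base mean minimum and other adjustments. Python 3.11.15, numpy 2.4.6, pandas 2.3.3, scipy 1.17.1 and matplotlib 3.10.9 were used.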

Additional observations from a re-analysis of the deposited data

Results flagged for a closer look

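Results are listed here where the test of a difference between groups passed its threshold. Between ESC-OB GFP+ and ESC-OB, the log2 change differed for 27 of the genes named in the text, each higher in ESC-OB GFP+. Among large subunit genes the differences were 1.50 (Mrpl28), 1.36 (Mrpl4), 1.28 (Mrpl53), 1.26 (Mrpl33), 1.26 (Mrpl14), 0.97 (Mrpl55), 0.86 (Mrpl41), 0.85 (Mrpl12), 0.84 (Mrpl23), 0.79 (Mrpl21), 0.74 (Mrpl17), 0.70 (Mrpl2), 0.68 (Mrpl18), 0.63 (Mrpl22) and, by its place in the structure, 0.99 (Mrps18a). Among small subunit genes they were 1.50 (Mrps28), 1.25 (Mrps26), 1.24 (Mrps11), 1.18 (Mrps14), 0.97 (Mrps6), 0.85 (Mrps34), 0.85 (Mrps18b), 0.79 (Mrps15), 0.77 (Mrps10), 0.71 (Mrps33), 0.68 (Mrps17) and 0.56 (Mrps18c). Of these 27, 17 lost their call when centred by transcript length: Mrpl2, Mrpl12, Mrpl17, Mrpl18, Mrpl21, Mrpl22, Mrpl23, Mrpl41, Mrpl55, Mrps6, Mrps10, Mrps15, Mrps17, Mrps18b, Mrps18c, Mrps33 and Mrps34, at 0.16 (Mrpl18) to 0.58 (Mrpl55). Mrpl21, Mrpl22 and Mrps17 also lost it when centred on the median of genes whose base mean reached 10 (adjusted p = 0.0712, 0.0595 and 0.0777). Centred by G and C content, 8 of the 27 lost their call: Mrpl2, Mrpl12, Mrpl14, Mrpl21, Mrpl23, Mrpl41, Mrpl55 and Mrps34. Mrpl14, which kept its call by length, was then at 0.59 (adjusted p = 0.0709). Mrpl51, Mrps16 and Mrps30, which are not among the 27, gained a call. Between iPSC-OB and ESC-OB the difference was 1.09 for Mrps2, 0.99 for Mrps5, 0.86 for Mrpl45, 0.82 for Mrpl14 and 0.67 for Mrpl49, each higher in iPSC-OB. The lines were normalised in separate fits.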

How the results depend on the processing

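No count or median of the 77 genes in the 3 comparisons reversed under an alternative. Sizes, the smaller counts and the calls of single genes moved. Requiring an absolute log2 value of at least 1 left 22 called genes in ESC-OB GFP+ (5 of them rises) and 36 in iPSC-OB. Of all genes tested, 32.5% rose and 24.5% fell this far in ESC-OB GFP+, and 21.5% and 16.2% in iPSC-OB. The 17 falls in ESC-OB GFP+, 22.1% of the 77 genes, were thus no more frequent than over all genes. At this size 15 genes were higher in sorted than unsorted cells, against 4.34% of all genes. Only 1 was higher in iPSC-OB than ESC-OB, against 8.76%. An adjusted p of 0.01 left 3 of the 5 line differences, against 7.30% of all genes higher and 12.8% lower. Among genes whose base mean reached 10, the median lay at 0.21 in ESC-OB GFP+ and 0.19 in ESC-OB, and centring on it moved the medians of the 77 genes to -0.66 and -1.29. Centring by transcript length and by G and C content was added after seeing the data. By length, the ESC-OB GFP+ median was -0.62. Then 2 genes rose in ESC-OB (Mrpl23 at 0.59 and Mrps6 at 0.58), against 41.3% of all genes centred in this way. In iPSC-OB 2 rose (Mrpl14 at 0.77 and Mrps6 at 0.67), against 31.1%. The sorted and unsorted cells differed in 21 genes, 20 of them higher, with a median of 0.32. By G and C content, Mrpl4 at -0.46 and Mrps34 at -0.31 reversed in ESC-OB GFP+ (adjusted p = 3.93e-05 and 0.0656), as did Mrpl51 at 0.10 (adjusted p = 0.48). Counts that used the larger deposited standard error for the sorted and unsorted difference rose to 54. Over all genes 17.2% were then higher and 17.4% lower. No paired analysis was possible because the tables hold no columns per sample, and for the same reason no replicate could be left out.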
